A study of Mus musculus with 4 samples.

Results

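The vestibular hair cells (HCs) of the newborn mouse were compared with the other epithelial cells of the same organs, the epithelial non-sensory cells (ENSCs), gene by gene in one table of RNA-seq signals. A gene entered the description when its signal was at least 200 in the higher of these 2 libraries, which held for 6309 of the 12814 genes in the table. For each gene the log2 ratio of the HC signal to the ENSC signal was taken, so that a positive ratio means a higher signal in HCs. Both populations came from *Atoh1/nGFP* mice on a C57BL/6 background at postnatal day 1. The transgene places a nuclear green fluorescent protein (GFP) under the control of an *Atoh1* enhancer, and *Atoh1* is a transcription factor that hair cells require. Vestibular tissue was dissociated and sorted, HCs as cells positive for GFP and for the epithelial surface protein CD326, ENSCs as cells positive for CD326 without GFP. Several mice were pooled per replicate, and each population is 1 column of the table, so that no difference could be set against a spread between replicates and none was tested. The cochlear HCs and ENSCs, from mice of the same line and age and 1 column each, are given beside the vestibular values as libraries that the vestibular ratio does not use.

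The vestibular organs, the utricle, the saccule and the cristae of the semicircular canals, sense gravity and head motion. Their hair cells carry a bundle of actin-filled stereocilia beside a single true cilium, the kinocilium, whose core is a microtubule axoneme built like that of a motile cilium. Bending of the bundle opens mechanically gated channels, and the cell answers by releasing glutamate at ribbon synapses. The ENSCs include the supporting cells, which secrete the otolithic membrane and otoconia, and the cells of the transitional and dark epithelium, which form the endolymph. Type I hair cells sit in a nerve calyx and type II hair cells do not, and the sort did not separate them.

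The labels were checked against marker genes. All 10 hair cell markers looked up were at least 3-fold higher in the HC library, with summed signals of 32616 in HCs and 1467 in ENSCs, and 8 of them lay at the floor of 20 in ENSCs. Of 12 markers of supporting cells and other vestibular epithelium, 8 were at least 3-fold lower in HCs and 1, *Sox2*, was higher. Other cell types were looked for in the same way. Of 9 mesenchymal markers in the table, 6 were lower in HCs, at summed signals of 440.25 and 2714, and 1, *Pdgfra*, was higher (162.75 in HCs and 47.75 in ENSCs). Among the 6 glial markers, 4 were lower in HCs (sums of 604.5 and 3989), most of it from *Sox10* and *Erbb3*. *Kdr*, an endothelial receptor, was the only gene of 8 endothelial markers in the table, with 29.75 in HCs and 1462 in ENSCs. The macrophage marker *Cd68*, the only one of 9 in the table, stood at 20 and 24.75, none of 6 red cell markers was in the table, and 3 of 8 melanocyte markers summed to 685 in HCs and 843.25 in ENSCs. The part of these cell types in the differences was not tested. In bulk samples like these, fewer cells of a type and less RNA per cell cannot be told apart.

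Signals are read counts that the authors quantile-normalized, so every column has the same distribution and sum. The depth of each library is unknown for that reason. Normalization left the lowest values tied, up to 30.5 in vestibular HCs and 20 in vestibular ENSCs. Where the smaller signal of a pair lay in that range, the fold is given as a lower bound ("at least") against the top of the range.

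Of the 6309 genes, 1110 (17.6%) had an at least 3-fold higher signal in HCs and 1200 (19.0%) at least 3-fold lower. The remaining 3999 lay between these bounds. Without the minimum of 200, these shares were 13.8% and 14.3% of the whole table, and they are the background for the gene lists below. A ratio of at least 10 was reached by 405 genes towards HCs and by 338 towards ENSCs. The median log2 ratio was 0.072 over these genes and -0.0045 over the whole table. At the edge of the minimum, *Mapkapk5*, *Heatr5b* and *Gatc* were just inside at 200, with log2 ratios of 1.15, 1.64 and 0.39, and *Dhrs3*, *Arid5a* and *Gm5697* just outside at 199.75, with -1.25, -1.27 and 3.32.

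**Figure D1:**
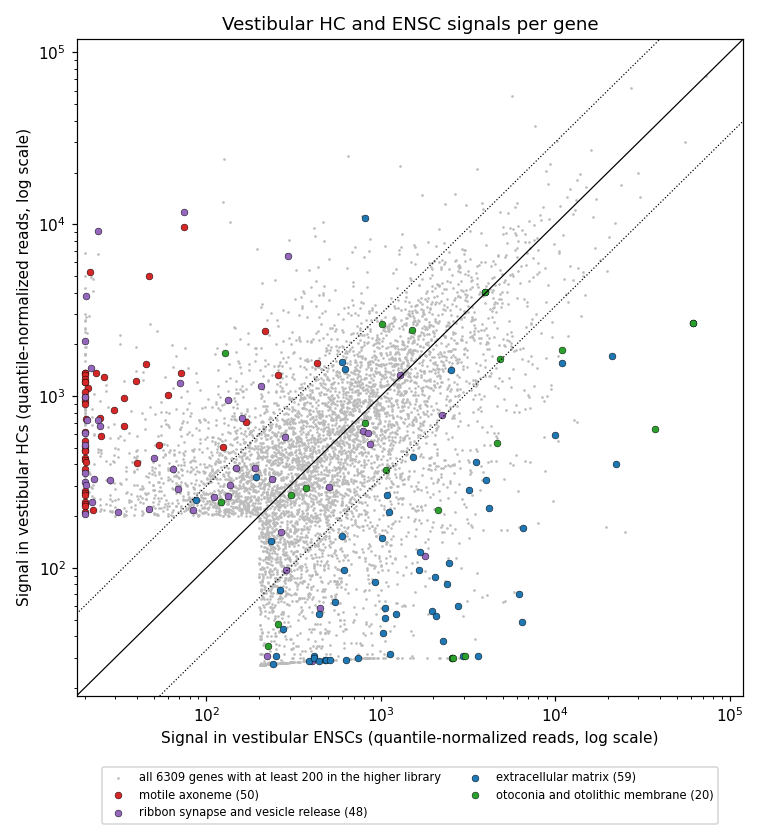
Signals of the 6309 genes in vestibular ENSCs (horizontal, log scale) and vestibular HCs (vertical, log scale), 1 point a gene, with the solid line at equal signals and the dotted lines at a 3-fold difference. Most axoneme genes lie at the left edge, near 20 in ENSCs and up to 9696 in HCs, and matrix and otoconial genes lie along the bottom and right.

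The protein-coding genes furthest apart in the direction of HCs included bundle and synapse genes. *Ptprq*, a phosphatase of the stereocilia shaft connectors, had 23927 in HCs and 126.5 in ENSCs (189-fold). *Xirp2*, which encodes an actin-binding repeat protein, had 4976 in HCs and 20 in ENSCs (at least 249-fold). *Rbm24*, an RNA-binding protein that controls splicing, had 4249 in HCs and 20 in ENSCs (at least 212-fold). In the cochlear pair of libraries, the other genes of this set of 15 were at least 8.64-fold higher in HCs, the ratio of *Slc17a8*, whereas *Dnahc5* stood at 88 and 60.5. Less familiar members of the set were *Sh2d4b* (4963 in HCs and 21.75 in ENSCs), *Mreg* (2918 in HCs and 21.25 in ENSCs) and the uncharacterized *1700003M02Rik* (2772 in HCs and 20 in ENSCs).

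The following genes were among the 15 furthest apart in the direction of ENSCs. *Cldn4*, a tight junction claudin, had 30.5 in HCs and 3066 in ENSCs (at least 101-fold). *Slco2a1*, a prostaglandin transporter, had 30 in HCs and 2817 in ENSCs (at least 92.4-fold). *Col14a1*, a fibril-associated collagen, had 70.5 in HCs and 6232 in ENSCs (88.4-fold). *Lrp2*, the endocytic receptor megalin, had 63.5 in HCs and 5033 in ENSCs (79.3-fold), and the aminopeptidase gene *Enpep* 72 in HCs and 5772 in ENSCs (80.2-fold). The cochlear libraries held less of several of these: *Slco2a1* stood at 24.25 and 29, *Nox3* at 24.25 and 34.25, *Sfrp5* at 27 and 22.75 and *Tmem176b* at 137.25 and 152.5. *Sema3c* and *Lect1*, by contrast, were also high in cochlear ENSCs, at 3205 and 5935.

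**Figure D2:**
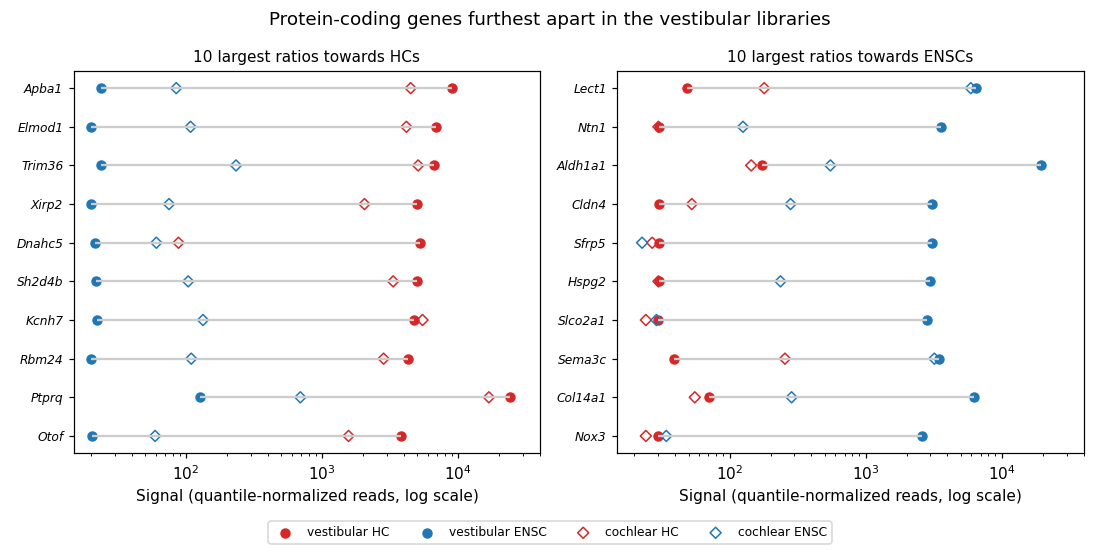
Signals (log scale) of the 10 protein-coding genes with the largest ratio in each direction in the 2 vestibular libraries (filled circles, joined by a bar) and the 2 cochlear libraries (open diamonds). Most HC genes keep their order in the cochlea, whereas the cochlear diamonds of *Dnahc5*, *Sfrp5*, *Slco2a1* and *Nox3* lie close together.

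Genes were then grouped by function, and each list is described by all its genes in the table, whether or not they reached 200. Transcription factors known from hair cells leaned towards HCs, with 14 of 32 at least 3-fold higher, 1 lower and a median log2 ratio of 1.47. *Pou4f3*, which hair cells need to survive, had 2489.5 in HCs and 20 in ENSCs (at least 124.5-fold). *Gfi1*, a zinc finger repressor downstream of it, had 1219.8 in HCs and 20 in ENSCs (at least 60.99-fold), and the basic helix-loop-helix gene *Nhlh1* 831.25 in HCs and 20 in ENSCs (at least 41.6-fold). *Atoh1*, whose enhancer drives the sort marker, had 503.5 in HCs and 20 in ENSCs (at least 25.2-fold). *Sall1* was also present in ENSCs, with 1141 in HCs and 117 in ENSCs (9.75-fold). *Ikzf2*, a regulator of outer hair cells in the cochlea, had 266 in HCs and 714.5 in ENSCs, short of 3-fold as deposited (log2 ratio -1.43) and past it after correction for length and GC content (-2.22). The lower gene was *Zfp503*, a zinc finger repressor, with 269.5 in HCs and 813.25 in ENSCs (3.02-fold, or a log2 ratio of -0.43 after correction for length and GC content), and its cochlear signals of 5794 and 524.25 lay the other way.

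Transcription factors that pattern the otic epithelium were mixed, with 6 of 32 higher and 10 lower. *Lmx1a*, which marks non-sensory otic epithelium, had 30 in HCs and 2173 in ENSCs (at least 71.2-fold lower in HCs). *Gata2* had 74.75 in HCs and 3399.8 in ENSCs (45.5-fold lower), *Sox10* 45.75 in HCs and 1183 in ENSCs (25.9-fold lower) and *Tbx3* 266.75 in HCs and 3319.8 in ENSCs (12.4-fold lower). Among the higher genes were the following. *Sox2*, which prosensory cells, supporting cells and type II hair cells use, was 8.504-fold higher in HCs, *Sox21* had 1569 in HCs and 265.5 in ENSCs (5.91-fold) and *Irx5* 386 in HCs and 64.25 in ENSCs (6.01-fold). *Sox2*, *Sox21* and *Irx5* did not reach 3-fold towards cochlear HCs, and *Irx5* was lower there (377.75 and 1502 in cochlear HCs and ENSCs).

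The hair bundle gave some of the largest ratios. Of 44 genes of the stereociliary actin core and its regulators, 20 were higher in HCs and 6 lower (median log2 ratio 1.21). *Elmod1*, a GTPase-activating protein needed for bundle shape, had 6846 in HCs and 20 in ENSCs (at least 342-fold). *Myo3b*, a motor of the stereocilia tips, had 2879 in HCs and 20.25 in ENSCs (142-fold). *Espnl*, an espin relative, had 1376 in HCs and 20 in ENSCs (at least 68.8-fold). Among the lower genes were general cortex and bundling proteins: the ERM protein gene *Msn* had 34 in HCs and 391.75 in ENSCs and the plastin gene *Pls3* 97.25 in HCs and 1013 in ENSCs. In the Usher and ankle link list, 6 of 10 were higher and none was lower. *Clrn1*, which encodes the membrane protein clarin 1, had 938.25 in HCs and 24.5 in ENSCs (38.3-fold). *Ush1c*, which encodes the scaffold harmonin, differed little (641.75 in HCs and 471.75 in ENSCs).

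Of 15 mechanotransduction genes, 11 were higher and 1 lower in HCs (median 3.23). The lower one was *Myo1c*, an unconventional myosin, with 26.5 in HCs and 159.25 in ENSCs, named after its value was seen. *Tmc1*, a pore-forming subunit, had 502 in HCs and 20 in ENSCs (at least 25.1-fold). *Lhfpl5* and *Tmie*, accessory subunits, had 326.75 in HCs and 20 in ENSCs (at least 16.3-fold) and 255.5 in HCs and 22.5 in ENSCs (11.4-fold). *Cib2*, a calcium-binding partner of TMC channels, had 376.75 in HCs and 39.75 in ENSCs (9.48-fold). Of the tip link cadherins, *Pcdh15* had 8510.2 in HCs and 416.75 in ENSCs (20.4-fold) and *Cdh23* 524.25 in HCs and 136.5 in ENSCs (3.84-fold). *Pcdh15* lay well above the floor in ENSCs too, unlike *Tmc1* and *Lhfpl5*.

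Of 70 genes listed for ribbon synapses and vesicle release, 34 were higher and 5 lower (median 1.38), with 22 higher once 100 was added to each signal, and 31 lay between. *Slc17a8*, which encodes the vesicular glutamate transporter VGLUT3, had 11819.8 in HCs and 74.25 in ENSCs (159-fold). *Otof*, the calcium sensor of hair cell exocytosis, had 3806 in HCs and 20.25 in ENSCs (188-fold). *Apba1*, a scaffold that binds release proteins, had 9076 in HCs and 23.75 in ENSCs (382-fold), the membrane fusion gene *Snap25* 2091 in HCs and 20 in ENSCs (at least 105-fold) and the synaptotagmin *Syt13* 1449 in HCs and 21.75 in ENSCs (66.6-fold). At least 3-fold lower in HCs were the neuroligin genes *Nlgn1* (28.75 in HCs and 403 in ENSCs) and *Nlgn2* (58 in HCs and 449.5 in ENSCs), the priming factor gene *Unc13b* (117.75 in HCs and 1785 in ENSCs) and *Scg2*, a gene of secretory granules (30.5 in HCs and 221.75 in ENSCs). *Nlgn3* fell short of 3-fold (97 in HCs and 285 in ENSCs). Neuroligins are adhesion proteins of the postsynaptic side. The neurofilament genes *Nefl* and *Nefm*, listed as neuronal markers, were at 2470 and 2121 in HCs and at the floor in ENSCs. *Rbfox3*, a marker of mature neurons, was at the floor of 20 in both libraries, and *Ntrk2* and *Ntrk3* stayed close to 100 or below in HCs (102 and 61.25). The 5 neuronal markers in the table, of 8 looked up, summed to 4775 in HCs and 175 in ENSCs, and their part in the synaptic genes was not tested. Per the study's methods, the CD326 gate was there to keep neuronal cells with GFP out of the HC sort.

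Genes of the efferent synapse and of GABA signalling were mostly higher in HCs. Of 14 genes of acetylcholine receptors and GABA signalling, 9 were higher and 2 lower in HCs. The subunit genes of the efferent receptor of hair cells, *Chrna9* (75.5 in HCs and 20 in ENSCs) and *Chrna10* (199.5 in HCs and 20 in ENSCs), were under the minimum of 200 and named after their values were seen. The muscle-type subunit genes *Chrna1* and *Chrng* had 234.5 in HCs and 20 in ENSCs (at least 11.7-fold) and 257.5 in HCs and 20 in ENSCs (at least 12.9-fold). *Gad1* and *Gad2*, which make GABA, had 419.5 in HCs and 29.25 in ENSCs and 212.5 in HCs and 20 in ENSCs, and in the cochlea the signals were 145.25 and 238.75 for *Gad1* and 2596 and 26.75 for *Gad2* in HCs and ENSCs. The lower genes were *Chrna4*, a neuronal nicotinic subunit gene, with 40.5 in HCs and 809.5 in ENSCs (19.99-fold), and *Chrnb1*, a muscle-type one, with 62.25 in HCs and 580.5 in ENSCs (9.33-fold).

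Potassium channel and calcium handling genes leaned towards HCs. Of 37 potassium channel genes, 16 were higher and 4 lower in HCs, but only 10 of them reached 200. *Kcnh7*, an ERG-type channel gene, had 4774 in HCs and 22.25 in ENSCs (215-fold). *Kcna4* had 2401 in HCs and 52 in ENSCs (46.2-fold) and *Kcnmb2*, an auxiliary subunit of the calcium-activated BK channel, 593 in HCs and 20 in ENSCs (at least 29.6-fold). *Kcnj2*, an inward rectifier, had 1895 in HCs and 75.5 in ENSCs (25.1-fold), and in the cochlea the pair was 294.75 and 436.75. *Kcne1*, which works with *Kcnq1* in the potassium-secreting dark cells, had 29.5 in HCs and 670.5 in ENSCs (at least 21.98-fold lower). Among 42 voltage-gated calcium, sodium, HCN and TRP channel genes, 10 were higher and 4 lower. The synaptic calcium channel gene *Cacna1d* had 1142 in HCs and 206.75 in ENSCs (5.52-fold), and the sodium channel subunit gene *Scn3b* 1287 in HCs and 20 in ENSCs (at least 64.3-fold). Of 33 calcium buffer, sensor and pump genes, 13 were higher and 3 lower. *Slc8a2*, a sodium/calcium exchanger, had 490 in HCs and 20 in ENSCs (at least 24.5-fold), and *Atp2b2*, the plasma membrane calcium pump of hair bundles, 1783 in HCs and 127.75 in ENSCs (13.96-fold).

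Genes listed as markers of either vestibular hair cell type were mostly higher in HCs, in a list that does not separate the types. Of 17 genes listed for type I or type II cells, 12 were higher in HCs and none lower (median 3.52). *Ocm*, the calcium buffer oncomodulin of type I cells in the central zones, had 533.75 in HCs and 20 in ENSCs (at least 26.7-fold), and *Kcnab1*, a potassium channel beta subunit gene, 482.75 in HCs and 25 in ENSCs (19.3-fold). *Calb2*, the calcium buffer calretinin, had 398.75 in HCs and 20 in ENSCs (at least 19.9-fold), and *Tnc*, the matrix protein tenascin C, 10905 in HCs and 816.5 in ENSCs (13.4-fold). *Bdnf*, a neurotrophin for vestibular neurons, had 2623 in HCs and 47.75 in ENSCs (54.9-fold). *Spp1*, osteopontin, was not past 3-fold (2615 in HCs and 1011 in ENSCs).

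Axoneme genes had the highest share on the HC side among the lists with at least 15 genes in the table. Of 86 genes of the motile axoneme, 72 (83.7%, against 13.8% of the table) passed 3-fold towards HCs and 1, the tubulin-binding protein gene *Tppp3*, was lower as deposited (24.25 in HCs and 108.5 in ENSCs) and short of 3-fold after correction (log2 ratio -0.78). The median log2 ratio was 3.38, and 50 of the genes reached 200. With signals under 100 raised to 100, 42 were at least 3-fold higher. *Dnahc5*, a heavy chain of the outer dynein arm, had 5255 in HCs and 21.5 in ENSCs (244-fold). *Dnahc6*, an inner arm heavy chain, had 1359 in HCs and 20 in ENSCs (at least 67.96-fold), and *Dnahc11* was also read in ENSCs, with 1549 in HCs and 428 in ENSCs (3.62-fold). *Ccdc39*, part of the ruler that sets the spacing of the dynein arms, had 5006 in HCs and 46.75 in ENSCs (107-fold). *Wdr52*, a gene of the axonemal WD-repeat family, had 1368 in HCs and 20 in ENSCs (at least 68.4-fold), and *Mlf1*, the axoneme gene with the highest signal in HCs, 9696 in HCs and 74 in ENSCs (131-fold). Genes not past 3-fold and under 200 included *Dnahc1* (92 in HCs and 87.5 in ENSCs), *Dnahc8* (22.25 in HCs and 20 in ENSCs) and *Ak8* (20 in both), which were named after their values were seen.

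In the cochlear pair, 44 of the 86 axoneme genes passed 3-fold towards HCs (8.39% of the table) and none was lower, with a median log2 ratio of 1.68. *Dnahc5* had 88 and 60.5 in cochlear HCs and ENSCs and *Dnahc6* 157 and 40, whereas *Mlf1* had 3629 and 289.5 and *Ccdc39* 3055 and 389.25. A difference between the organs was not tested, since there is 1 library for each population.

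Ciliary transport genes leaned the same way with smaller ratios. Of 73 genes of intraflagellar transport, the BBSome and the transition zone, 35 were higher and 1 lower in HCs (median 1.54), with 21 higher once 100 was added to each signal. Nearly every cell can carry a primary cilium, and the following genes were off the floor in ENSCs. *Bbs5*, a BBSome subunit, had 572.75 in HCs and 31 in ENSCs (18.5-fold), the transition zone gene *Rpgrip1l* 2005 in HCs and 129.25 in ENSCs (15.5-fold) and *Ift74*, of the transport complex B, 2135 in HCs and 156.25 in ENSCs (13.7-fold). *Ift20* (519.5 in HCs and 561 in ENSCs) and *Tulp3* (379.25 in HCs and 601.75 in ENSCs) did not differ by 3-fold. The kinesin genes *Kif27* and *Kif9*, whose products are tied to motile cilia, had 1164 in HCs and 26.5 in ENSCs (43.9-fold) and 749 in HCs and 24.5 in ENSCs (30.6-fold). Both belong to a wider list of 78 kinesin, cytoplasmic dynein and microtubule genes, of which 16 were higher and 11 lower, with 7 higher once 100 was added to each signal and 27 with the correction fitted on the genes with at least 200. Among the lower were *Dclk1* (244.75 in HCs and 9696 in ENSCs) and the tubulin gene *Tuba1c* (34 in HCs and 613.5 in ENSCs).

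**Figure D3:**
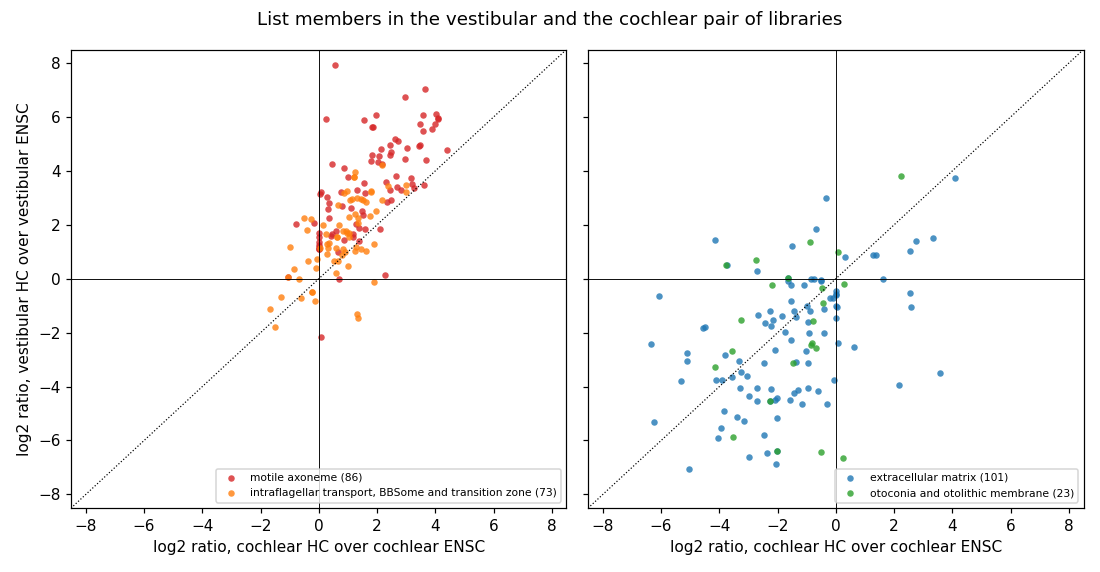
Log2 ratio of HC to ENSC signal in the cochlear pair (horizontal) and the vestibular pair (vertical), 1 point a gene, for axoneme and ciliary transport genes (left) and matrix and otoconial genes (right), with the dotted line at equal ratios. Most axoneme points lie above the dotted line, with medians of 3.38 in the vestibular pair and 1.68 in the cochlear pair.

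Ciliary genes are known targets of RFX transcription factors, which bind the X-box, an inverted repeat of a pair of half-sites. The promoters of the listed genes were therefore read for GTTNC and GNAAC separated by 3 to 5 bases, a form that reads alike on both strands, in the 250 bases before and 50 after each RefSeq start (GRCm38.p6). The form was chosen with these lists in view, and the coordinates below are of that build, not of mm9, which the signals were counted on. A match was found for 3.03% of the 9366 genes of the table with a promoter sequence. It was found for 20 of 71 axoneme genes (28.2%), 8 of 63 transport genes (12.7%), none of 54 synapse genes and none of 69 matrix genes. Lists not defined by cilia also held matches above the share of the table, on few genes, among them 3 of 22 splicing genes (13.6%), 2 of 23 calcium handling genes (8.7%), 1 of 12 mechanotransduction genes (8.33%), 2 of 25 hair cell transcription factor genes (8%) and 3 of 38 stereocilia actin genes (7.89%). The share was 6.25% of planar cell polarity genes, 5.26% of otic patterning genes, 4.26% of heat shock genes, 3.7% of potassium channel genes, 3.39% of microtubule genes and 3.23% of pump genes. Among the genes with at least 200, the share was 6.16% of those higher in HCs, 2.55% of those between and 2.09% of those lower. Within the axoneme list, matches lay both in genes at least 3-fold higher in HCs and in genes short of 3-fold (*Wdr65*, *Nme7* and *Rsph3b*). *Dnahc5*, *Mlf1* and *Ccdc39*, with the largest ratios of that list, had no match. A match describes letters in a window and is not a measured binding site. The stretches below, from the 4 axoneme and 2 transport genes with the largest HC ratios among those whose match lay with 20 bases on each side before the start, are on the gene's strand with the match in capitals:
Dnahc6 promoter, chr6:73221635-73221687, minus strand: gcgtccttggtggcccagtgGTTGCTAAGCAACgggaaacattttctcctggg
Dnahc9 promoter, chr11:66168601-66168653, minus strand: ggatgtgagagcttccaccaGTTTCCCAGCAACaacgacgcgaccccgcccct
Zbbx promoter, chr3:75143784-75143836, minus strand: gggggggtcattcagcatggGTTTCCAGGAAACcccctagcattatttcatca
Spag16 promoter, chr1:69826847-69826900, plus strand: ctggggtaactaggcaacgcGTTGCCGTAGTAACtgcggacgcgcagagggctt
Lztfl1 promoter, chr9:123717755-123717809, minus strand: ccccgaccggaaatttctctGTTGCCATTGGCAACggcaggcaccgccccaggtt
Bbs7 promoter, chr3:36613477-36613530, minus strand: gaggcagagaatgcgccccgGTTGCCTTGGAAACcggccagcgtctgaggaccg

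These genes were chosen by that rule after their values were seen, from the first match of each promoter and with the genes of a chromosome left out. The matches end 23 bases before the start in *Dnahc6* and 69 in *Dnahc9*, both dynein heavy chain genes. *Dnahc9* had 1204 in HCs and 20 in ENSCs (at least 60.2-fold), *Zbbx* 985.25 in HCs and 20 in ENSCs (at least 49.3-fold) and *Spag16* 736 in HCs and 20.25 in ENSCs (36.3-fold), all near the floor in ENSCs. *Lztfl1* and *Bbs7*, of the BBSome and its regulation, had 2370.2 in HCs and 308 in ENSCs (7.696-fold) and 203 in HCs and 42.5 in ENSCs (4.78-fold) and were read in both populations.

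Of 30 Notch pathway genes, 6 were higher and 6 lower in HCs (median -0.05), and 8 and 3 after correction for length and GC content. Several ligand genes were higher in HCs: *Dner*, a non-canonical ligand, had 1918 in HCs and 20 in ENSCs (at least 95.9-fold), *Dll1* 452.5 in HCs and 65.25 in ENSCs (6.93-fold), *Jag2* 289 in HCs and 30 in ENSCs (9.63-fold) and *Dll3* 206 in HCs and 20 in ENSCs (at least 10.3-fold). The receptor gene *Notch1* had 87.5 in HCs and 1887 in ENSCs (21.6-fold lower in HCs) and *Notch2* 177 in HCs and 2507 in ENSCs (14.2-fold lower). *Ncstn*, a subunit of the protease that cleaves Notch, had 215 in HCs and 1588 in ENSCs (7.38-fold lower). *Jag1*, the ligand of supporting cells, did not reach 3-fold (1713 in HCs and 761 in ENSCs).

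Of 23 genes for otoconia and the otolithic membrane, 11 were at least 3-fold lower in HCs and 1, *Atp2b2*, higher (median -1.56), and 11 lay between. *Oc90*, otoconin-90, the main otoconial matrix protein, had 644.25 in HCs and 37324 in ENSCs (57.9-fold). *Sparc*, a calcium-binding matrix protein, had 2649.8 in HCs and 62029 in ENSCs (23.4-fold). *Nox3*, an oxidase without which otoconia do not form, had 30 in HCs and 2604 in ENSCs (at least 85.4-fold). *Tectb* and *Otop1* did not differ by 3-fold (2436 in HCs and 1507 in ENSCs and 242 in HCs and 121.25 in ENSCs). Supporting cell genes divided: of 42, 14 were lower and 3 higher in HCs. *Mia1* had 64.5 in HCs and 5182 in ENSCs (80.3-fold lower), whereas *Prox1* (1722 in HCs and 924.75 in ENSCs) and *Jag1* stayed under 3-fold. Of 42 endolymph transport genes, 15 were lower in HCs, and 6 after correction for length and GC content. *Esrrb*, a nuclear receptor of endolymph-secreting cells, had 29.75 in HCs and 1235 in ENSCs (at least 40.5-fold), and the sodium pump subunit gene *Atp1b2* 326 in HCs and 3806 in ENSCs (11.7-fold).

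Epithelial junction genes leaned towards ENSCs. Of 72 genes of tight junctions, keratins and epithelial identity, 35 were lower and 3 higher in HCs (median -1.53, or -1.39 with tied signals raised to the top of their range). After correction for length and GC content 28 were lower (median -1.12), and 22 with the correction fitted on the genes with at least 200, in a list whose median GC content was 53.4%. The claudin gene *Cldn8* had 181.25 in HCs and 7995 in ENSCs (44.1-fold), the keratin gene *Krt18* 172.5 in HCs and 6189 in ENSCs (35.9-fold) and the cadherin gene *Cdh3* 54 in HCs and 1869 in ENSCs (34.6-fold). *Cdh1*, E-cadherin, had 178.5 in HCs and 3308 in ENSCs (18.5-fold). The heat-stable surface antigen gene *Cd24a* was high in both (27045 in HCs and 16060.2 in ENSCs), and 3 keratin and claudin genes went the other way, *Krt222* (493.25 in HCs and 20 in ENSCs), *Krt10* (267.25 in HCs and 45.25 in ENSCs) and *Cldn12* (1472 in HCs and 443.75 in ENSCs, under 3-fold after correction at a log2 ratio of 1.56).

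Of 101 extracellular matrix genes, 58 (57.4%, against 14.3% of the table) were lower and 3 higher in HCs (median -2.02, or -1.97 with tied signals raised). In the cochlear pair, 50 were lower (9.20% of the table) and 9 higher, and 40 were lower in both pairs. *Lect1*, chondromodulin, had 48.5 in HCs and 6453 in ENSCs (133-fold). *Hspg2*, the basement membrane proteoglycan perlecan, had 30.5 in HCs and 2951 in ENSCs (at least 96.8-fold), and *Smoc2* 30 in HCs and 2548 in ENSCs (at least 83.5-fold). The 3 higher ones were *Tnc* and the laminin chain genes *Lama1* (157.5 in HCs and 20 in ENSCs) and *Lama2* (71 in HCs and 20 in ENSCs), the last 2 named after their values were seen. The mesenchymal collagen genes *Col1a1* (29 in HCs and 512.25 in ENSCs), *Col1a2* (54 in HCs and 443.25 in ENSCs) and *Col3a1* (63.25 in HCs and 547 in ENSCs) moved with the matrix list at lower signals, and the part of mesenchymal cells in it was not tested. Of 56 proteases and inhibitors of matrix turnover, 24 were lower, among them *Timp3* (705.75 in HCs and 13291 in ENSCs) and *Mmp2* (41.5 in HCs and 787 in ENSCs).

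**Figure D4:**
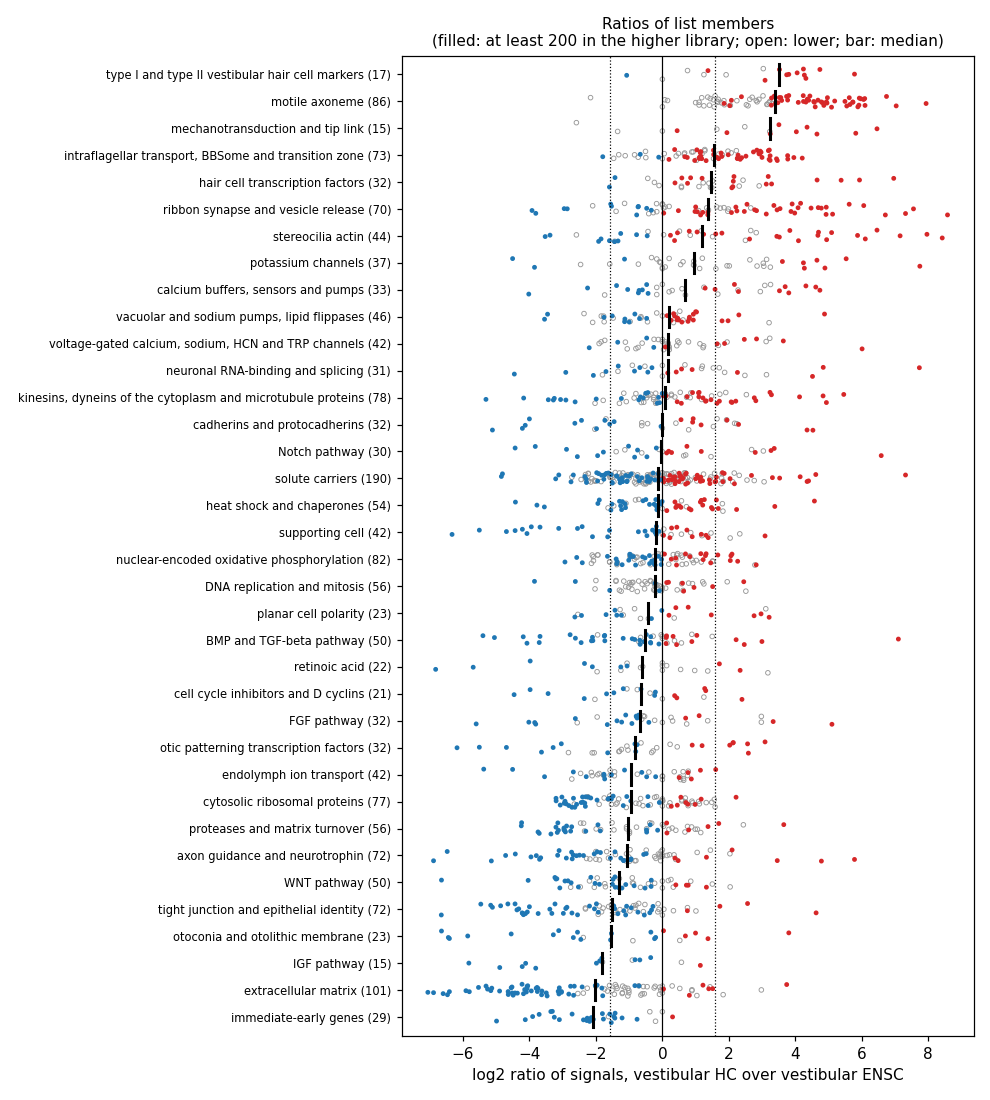
Log2 ratio of vestibular HC to ENSC signal for the genes of each list with at least 15 genes in the table, ordered by the list median (bar), with the number of genes in brackets. Filled points reached 200 in the higher library, dotted lines mark a 3-fold difference, with the type I and type II list (median 3.52) and the axoneme list (3.38) at one end and the matrix list (-2.02) and the immediate-early list (-2.08) at the other.

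Of 50 WNT pathway genes, 20 were lower and 1 higher in HCs. The secreted inhibitor *Sfrp5* had 30.5 in HCs and 3055 in ENSCs (at least 100-fold), the effector *Tcf7l2* 102.75 in HCs and 928.25 in ENSCs (9.03-fold), and the receptors *Fzd3* (1962 in HCs and 1145 in ENSCs) and *Fzd6* (1096 in HCs and 827.5 in ENSCs) stayed under 3-fold. Of 50 BMP and TGF-beta genes, 16 were lower and 4 higher. *Kcp*, a secreted modulator of BMP signals, had 2743 in HCs and 20 in ENSCs (at least 137-fold higher in HCs), whereas the antagonists *Sostdc1* and *Grem1* had 29.75 in HCs and 1255 in ENSCs (at least 41.1-fold lower) and 31.5 in HCs and 1046 in ENSCs (33.2-fold lower). The inhibitors of DNA binding parted, with *Id4* at 6408 in HCs and 804 in ENSCs and *Id1* at 29 in HCs and 488.5 in ENSCs.

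In the FGF pathway, 4 of 32 genes were higher and 8 lower in HCs. The ligand *Fgf10* had 6891 in HCs and 684 in ENSCs (10.1-fold higher) and the receptor *Fgfr2*, which binds it, 64.5 in HCs and 3134 in ENSCs (48.6-fold lower). In the cochlea *Fgf10* had 4878 and 7968 in HCs and ENSCs. In the IGF pathway, 9 of 15 were lower and none higher, with *Igf1* at 165.5 in HCs and 4917 in ENSCs (29.7-fold) and the binding protein *Igfbp2* at 52.25 in HCs and 2957 in ENSCs (56.6-fold). In the retinoic acid list, 3 of 22 were higher and 6 lower, and 6 and 4 after correction. The retinaldehyde dehydrogenase genes, whose products make retinoic acid, were higher in ENSCs: *Aldh1a1* had 172.5 in HCs and 19507 in ENSCs, *Aldh1a2* 29.75 in HCs and 1538 in ENSCs (at least 50.4-fold) and *Aldh1a3* 1267 in HCs and 5457 in ENSCs (4.31-fold), while the receptor gene *Rarb* was 3.28-fold higher in HCs (330.75 in HCs and 100.75 in ENSCs). Of 72 axon guidance and neurotrophin genes, 28 were lower and 5 higher, with 16 lower once 100 was added to each signal. Of secreted members, *Sema3c* had 38.75 in HCs and 3445 in ENSCs (88.9-fold lower) and *Slit2* 30.5 in HCs and 1079.8 in ENSCs (at least 35.4-fold lower), while *Bdnf* was the gene with the largest HC ratio of the list. *Robo2*, a Slit receptor gene, had 845 in HCs and 77 in ENSCs (10.97-fold higher) and *Sema6d*, a membrane-bound semaphorin gene, 8140 in HCs and 295.5 in ENSCs (27.5-fold higher).

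Some membrane and stress lists had shares near those of the whole table (13.8% higher and 14.3% lower), among them solute carriers (13.2% and 16.3%) and heat shock genes (13% and 11.1%). Of cadherin and protocadherin genes, 8 of 32 were higher and 10 lower in HCs, with the protocadherin gene *Pcdh8* at 461.5 in HCs and 20 in ENSCs (at least 23.1-fold) and the giant cadherin gene *Fat1* at 416.5 in HCs and 6668 in ENSCs (16.01-fold lower). In the planar cell polarity list, which covers the genes that orient hair bundles across the epithelium, 4 of 23 were higher and 4 lower, and 5 and 2 after correction (median from -0.42 to 0.18). The higher ones included *Intu* (495.5 in HCs and 53.5 in ENSCs, 9.26-fold) and *Wdpcp* (602.5 in HCs and 77 in ENSCs, 7.82-fold), whose products act at the base of cilia, and *Prickle2*, a core polarity gene, with 1799.8 in HCs and 266 in ENSCs (6.77-fold). The core polarity genes *Vangl1* (221.75 in HCs and 80 in ENSCs) and *Celsr1* (355 in HCs and 918.75 in ENSCs) fell short of 3-fold in opposite directions, although *Vangl1* passed it after correction (log2 ratio 2.04). Of solute carrier genes, 25 of 190 were higher and 31 lower, the latter 5 once 100 was added to each signal. The chloride exporter gene *Slc12a5*, known from mature neurons, had 353.75 in HCs and 20 in ENSCs (at least 17.7-fold) and the cystine transporter gene *Slc7a11* 572.25 in HCs and 28 in ENSCs (20.4-fold), whereas the amino acid transporter gene *Slc7a8* had 29.75 in HCs and 854.75 in ENSCs (at least 28.02-fold lower) and the glucose transporter gene *Slc2a1* 182.75 in HCs and 1691 in ENSCs (9.25-fold lower).

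Of pump and lipid flippase genes, 5 of 46 were higher (10.9%) and 8 lower (17.4%), near the shares of the whole table (13.8% and 14.3%). The flippase gene *Atp8a2* had 588 in HCs and 20 in ENSCs (at least 29.4-fold) and the proton pump subunit gene *Atp6v1e1* 845.75 in HCs and 171.75 in ENSCs (4.92-fold). Of heat shock and chaperone genes, 7 of 54 were higher and 6 lower. *Dnajb13*, whose product sits in the radial spokes of cilia, had 476.25 in HCs and 20 in ENSCs (at least 23.8-fold) and *Hspa2* 7385 in HCs and 708.5 in ENSCs (10.4-fold), while the small heat shock gene *Hspb8* had 29.25 in HCs and 626.75 in ENSCs (at least 20.5-fold lower). Of cell cycle inhibitors and D cyclins, 1 of 21 were higher and 6 lower. The retinoblastoma gene *Rb1*, which keeps hair cells out of the cell cycle, had 3003 in HCs and 571.25 in ENSCs (5.26-fold), and the cyclin genes *Ccnd2* and *Ccnd3* had 184.25 in HCs and 1998 in ENSCs (10.8-fold lower) and 29 in HCs and 457.5 in ENSCs (at least 15-fold lower). *Cdkn1b*, the cell cycle inhibitor p27Kip1, was close to even (771.5 in HCs and 571 in ENSCs). In the gap junction list of 8 genes, the pannexin gene *Panx1* (179 in HCs and 42.5 in ENSCs) and the neuronal connexin gene *Gjd2* (79.25 in HCs and 20 in ENSCs) were at least 3-fold higher, both named after their values were seen, and none was lower as deposited and 1 after correction.

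RNA-binding proteins that act on neuronal splicing were split. Of 31, 8 were higher and 5 lower in HCs. *Srrm4*, a splicing regulator required in hair cells, had 1470.2 in HCs and 64.25 in ENSCs (22.9-fold), and *Elavl4*, a neuronal RNA-binding protein gene, 586.75 in HCs and 20.5 in ENSCs (28.6-fold). *Esrp1*, a regulator of epithelial splicing, had 225.75 in HCs and 1693 in ENSCs (7.499-fold lower) and the RNA-binding protein gene *Rbms3* 278.5 in HCs and 6105 in ENSCs (21.9-fold lower). Cell cycle genes were scarce: 12 of 56 replication and mitosis genes reached 200. In this list 3 were higher (5.36%) and 5 lower (8.93%), under the shares of the table (13.8% and 14.3%). Another 48 lay between, and the median log2 ratio was -0.23. *Mki67*, a proliferation marker with the smallest ratio of the list, had 28.75 in HCs and 414 in ENSCs (at least 13.6-fold).

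Immediate-early genes, which cells switch on within minutes of stimulation or stress, leaned towards ENSCs. Of 29, 18 were lower in HCs and none higher (median -2.08), with 12 lower and 2 higher after correction for length and GC content. *Fosl2*, an AP-1 subunit gene, had 166.75 in HCs and 5298 in ENSCs (31.8-fold), and *Zfp36*, whose product destabilizes mRNAs, 576.25 in HCs and 8625 in ENSCs (14.97-fold). In the cochlear pair, 14 were lower.

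The vestibular ratios trended with the GC content of genes. Over the 6307 genes with at least 200 and a known sequence, the vestibular log2 ratio fell as exonic GC content rose (Spearman's rho = -0.376 across genes, which share the same 2 libraries and are not replicates). The median ratio was 0.70 in the quintile of lowest GC content and -1.40 in the highest, against 0.078 and -0.27 in the cochlear pair. Set against the mean of the other 3 libraries, the log2 signal of the vestibular ENSC library had a rho of 0.426 with GC content, and the other libraries -0.244 (vestibular HCs), -0.204 (cochlear HCs) and -0.169 (cochlear ENSCs). Once the vestibular ratios were corrected for exonic length and for GC content, rho was -0.105, 994 genes passed 3-fold towards HCs (15.8%) and 1037 lower (16.4%), against 14.6% and 10.2% of the whole table. Of the uncorrected calls, 897 of 1110 and 907 of 1200 kept their side, and none crossed to the other. With the trend fitted on the genes with at least 200 alone, rho was 0.026 and the counts were 1254 and 716, so that 63.7% of the calls were higher in HCs in place of 48.1%.

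The correction changed the counts of the translation and respiration lists by over 1.5 times. Ribosomal protein genes, which share sequence with many pseudogenes and are uncertain for that reason, had 29 of 77 lower in HCs as deposited and 17 lower after correction, with 2 and 6 higher. For nuclear-encoded oxidative phosphorylation, 12 of 82 were lower and 7 higher as deposited, against 4 and 12 after correction. The cochlear pair had 5 ribosomal and 0 oxidative phosphorylation genes lower. *Rps14* had 100 in HCs and 919.25 in ENSCs (log2 ratio -3.20, -2.62 corrected), and *Cox4i1* 142.25 in HCs and 1085 in ENSCs (-2.93, -1.61 corrected). Beside the axoneme, endolymph, Notch, planar cell polarity, retinoic acid, gap junction and immediate-early lists, whose corrected counts are given with them, the number lower in HCs moved by over 1.5 times for potassium channels from 4 to 2 and voltage-gated channels from 4 to 2. The number higher moved so for extracellular matrix from 3 to 7, proteases from 3 to 5, the WNT pathway from 1 to 2, BMP and TGF-beta from 4 to 7 and cell cycle inhibitors from 1 to 3. After correction, 77 axoneme genes were higher in place of 72 and 54 matrix genes lower in place of 58.

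**Figure D5:**
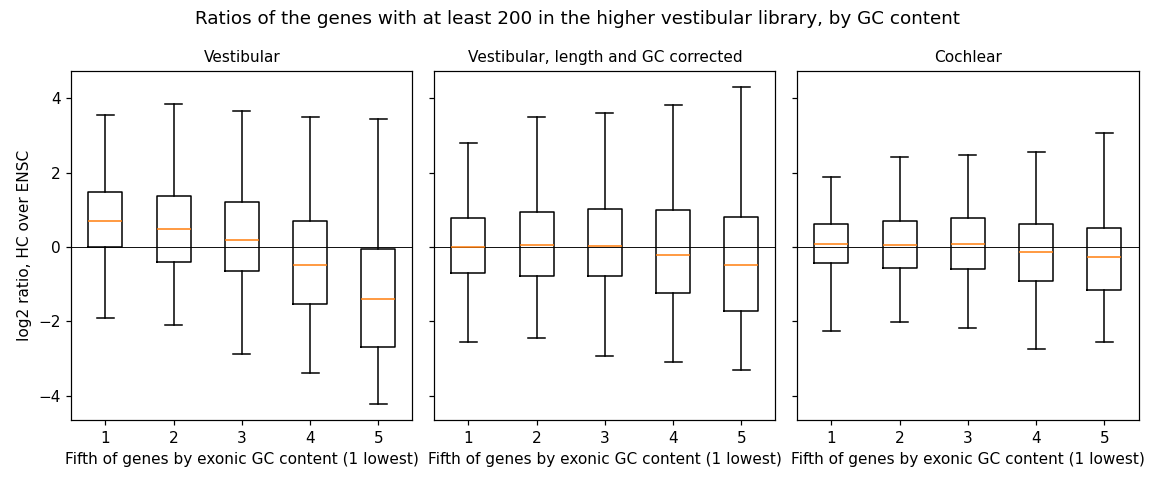
Log2 ratios of the genes with at least 200 in the higher vestibular library, in 5 groups of equal size by exonic GC content, for the vestibular pair as deposited, the vestibular pair after correction and the cochlear pair (line, median; box, middle 50% of genes; whiskers, the outer percentiles that leave out 5% of genes at each end). The vestibular median falls from 0.70 to -1.40 as deposited and from -0.012 to -0.48 after correction.

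Many of the vestibular differences had a counterpart in the cochlear pair, which shares no library with the vestibular one. Of the 1110 genes higher in vestibular HCs, 465 (41.9%) also passed 3-fold towards cochlear HCs, against 9.43% of all 6309 genes. Of the 1200 lower ones, 479 (39.9%) were also lower there, against 11.0%. The directions were opposite for 22 genes higher in vestibular and lower in cochlear HCs and for 9 with the reverse.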

How the data were processed

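RNA was sequenced from pools of sorted HCs and ENSCs of the vestibular system and the cochlea, 1 deposited column a population. The design text speaks of triplicates, which the columns do not separate. The labels name an RNeasy Plus Micro Kit, the study's methods another extraction, and both precede amplification with a NuGEN kit.

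The deposited signal is a read count per gene. Per the study's methods, the authors aligned the first 50 bases of reads to mm9 with TopHat, counted them on ENSEMBL genes with HTSeq and quantile-normalized the 4 columns with a floor of 20. Tool versions and the strand setting are not given in the sources used here, so reads of overlapping genes on opposite strands cannot be told apart. Columns headed as non-HC were taken as the ENSC samples, and 0 sample columns were left unused.

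From these signals a log2 ratio of HC to ENSC was computed per gene and called at 3-fold, with no test. Exonic length and GC content came from an mm9 annotation that matched 12799 genes. For the correction, lowess curves (fraction 0.3, 2 iterations) on log2 exonic length and then on GC content were fitted on genes above the floor in both columns and subtracted, and genes without a length kept their ratio. The script was tested on simulated data. Python 3.11.15, pandas 2.3.3 and statsmodels 0.14.6 were used.

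The members and lists were chosen with earlier results of these data known, and the heat shock and channel lists were narrowed after values were seen. Genes were named if among the 15 protein-coding genes with the largest ratio in each direction, the 5 largest or 5 smallest of a list among genes with at least 200, the cell type markers, or the genes beside the minimum. Others were named after their values were seen. Some genes that this rule names are not reported here.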

Additional observations from a re-analysis of the deposited data

Results flagged for a closer look

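In 5 of the named genes the vestibular and the cochlear pair differed in direction, each by at least 3-fold between HCs and ENSCs. With 1 library for each population the difference between the organs was not tested. The Iroquois gene *Irx5* was higher in vestibular HCs (log2 ratio 2.59) and lower in cochlear HCs (-1.99), a difference of 4.58. The protocadherin gene *Pcdh20* had 2.29 and -2.33, a difference of 4.62. The bicarbonate transporter gene *Slc4a4* had 1.60 and -3.78, a difference of 5.38, and its vestibular ratio fell short of 3-fold after correction for length and GC content (1.13). The urea transporter gene *Slc14a1* was lower in vestibular HCs (-4.81) and higher in cochlear HCs (4.93), a difference of -9.74. The zinc finger gene *Zfp503* had -1.59 and 3.47, a difference of -5.06, and a vestibular ratio of -0.43 after correction.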

How the results depend on the processing

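With 1 library for each population there is no replicate error, no library could be left out, and depth is unknown. No paired analysis was possible because each population has 1 column and no replicate number. Against 1110 genes higher and 1200 lower in HCs, the counts were 642 and 719 at a minimum of 500, 1762 and 1837 with no minimum, 710 and 754 at 5-fold, and 672 and 730 with 100 added to each signal, and 1761 were higher at 2-fold. With the length and GC correction fitted on the genes with at least 200, an alternative chosen after seeing the data, 716 were lower. With 100 added to each signal, 44 axoneme, 21 ciliary transport, 22 ribbon synapse and 7 microtubule genes were higher, and 16 axon guidance, 5 solute carrier, 17 ribosomal and 3 oxidative phosphorylation genes lower. With signals raised to at least 100, 42 axoneme and 10 microtubule genes were higher, and 18 axon guidance, 12 solute carrier and 4 oxidative phosphorylation genes lower. After the length and GC correction, 17 ribosomal and 4 oxidative phosphorylation genes were lower. With that correction fitted on the genes with at least 200, 27 microtubule genes were higher, and 22 tight junction, 16 axon guidance, 16 solute carrier, 12 ribosomal and 2 oxidative phosphorylation genes lower. Among the other list counts, 47 moved by over 1.5 times and 33 did not with 100 added, 32 and 48 with signals raised to 100, 16 and 64 after correction, and 42 and 38 with the correction fitted on the genes with at least 200. The matrix count of 58 lower stayed within 1.5 times with signals raised or added, with centring and under both corrections. The smaller counts with raised or added signals follow from the way these alternatives shrink ratios of low signals, and the cause of the others was not tested. Of 383 named genes, 347 kept their side of 3-fold with signals raised to at least 100 and 344 after correction. Of the others, 27 fell short of 3-fold after correction and 12 passed it, and none of the named genes crossed to 3-fold in the opposite direction under these alternatives.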

Other observations

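Levels can be compared between genes only per length. Genes were ranked so only among the protein-coding genes with at least 200 that were at least 3-fold higher in the library in question. Per kilobase of exon, high vestibular HC signals among them included those of *Skp1a*, a ubiquitin ligase subunit gene, at 25160, the axoneme gene *Mlf1* at 5640, the prohormone-processing gene *Cpe* at 4943 and *Id4* at 3860. In ENSCs they included *Oc90* at 19511, *Sparc* at 18422, *Aldh1a1* at 9501, the chaperone gene *Hsp90ab1* at 6638 and the elongation factor gene *Eef1a1* at 5612. *Skp1a* was higher in HCs by a log2 ratio of 3.29, and its cochlear ratio was 0.99. Within that set, these genes were chosen by their signal per length, after the values were seen, and genes short of 3-fold were not considered.

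Genes that are not annotated as protein-coding were also present. *Miat*, a long non-coding RNA, had 2998 in HCs and 20 in ENSCs (at least 149.9-fold), and the cochlear signals were 4753 and 93.5. *H19*, an imprinted non-coding RNA, had 30.5 in HCs and 1504 in ENSCs, and the cochlear signals were 115.5 and 6677. Of all 6309 genes with at least 200, 17.6% were at least 3-fold higher in HCs and 19.0% lower. Of 18 lincRNA genes among them, 9 were higher and 4 lower, and of 13 antisense genes 8 were higher and 2 lower, both on few genes. Of 109 pseudogenes 18 were higher, near the share of all these genes, and 38 lower. Of 15 processed pseudogenes 1 was higher and 9 lower. Reads of pseudogenes may come from the parent genes. The locus *mmu-mir-689-2*, 57 bases long, had 160.75 in HCs and 25000 in ENSCs, with cochlear signals of 422.75 and 463.75. Its vestibular log2 ratio was -7.28 as deposited and -4.30 after correction for length and GC content.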
